A study of Mus musculus with 10 samples.

Results

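The AP-1 family is described here through 10 genes taken by name, namely Fos, Fosb, Fosl1, Fosl2, Jun, Junb, Jund, Atf3, Maff and Mafk, of 36047 genes with transcripts in the mouse files. All 10 passed the filter on low counts and stood among 13362 genes tested. The libraries came from hepatic stellate cells of male C57BL/6 mice, the retinoid-storing pericytes of the liver. The cells were cultured for 5 h and then held for 4 h in starving medium, either with recombinant mouse amphiregulin (Areg) at 500 ng/mL or as controls, with 5 libraries in each group. No genetic change is labelled in either group, and both groups shared the culture and the starvation. Areg activates the EGF receptor, and the comparison asks whether transcripts of these factors differed after exposure to it. Nothing in the labels ties a library to its own animal or culture. The p-values therefore reflect how these libraries vary, and part of that variation may be technical.

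AP-1 is a dimer of basic leucine zipper (bZIP) proteins. Jun proteins pair with each other or with Fos proteins, whereas Fos proteins need a partner, and the dimers bind the sequences TGANTCA and TGACGTCA. Receptors that signal through MAP kinases typically raise Fos and Jun transcripts within minutes and only for a short time, while Fosl1 and Fosl2 tend to follow later and last longer. In stellate cells, AP-1 activity has been tied to the change from the quiescent to the matrix-producing state. Atf3 is a stress-induced bZIP factor that can pair with Jun proteins. Maff and Mafk are small Maf proteins, which lack an activation domain and act as partners of Nfe2l2 and Bach factors.

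Promoters of 4 members are printed because they show which elements of this kind lie next to the start sites of the genes that name the complex (Fos and Jun), of the member with the highest control mean (Junb) and of the one with the lowest (Fosb). The windows run from 250 bases before to 50 bases after the RefSeq start (GRCm38.p6), in the direction of the gene. Capitals mark every match, on either strand, to TGACGTCA, TGANTCA, TGACATCA (a variant element known from the Jun promoter), the CArG box of serum response factor or TGACG, the core contained in TGACGTCA.
Fos, chr12:85473640-85473939, plus strand: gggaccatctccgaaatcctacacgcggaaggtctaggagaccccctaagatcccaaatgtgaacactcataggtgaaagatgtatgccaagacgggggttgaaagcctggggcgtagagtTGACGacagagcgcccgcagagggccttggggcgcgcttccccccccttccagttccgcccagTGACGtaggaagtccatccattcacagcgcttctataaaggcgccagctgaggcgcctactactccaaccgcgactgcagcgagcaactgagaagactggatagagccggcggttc
Fosb, chr7:19309996-19310295, minus strand: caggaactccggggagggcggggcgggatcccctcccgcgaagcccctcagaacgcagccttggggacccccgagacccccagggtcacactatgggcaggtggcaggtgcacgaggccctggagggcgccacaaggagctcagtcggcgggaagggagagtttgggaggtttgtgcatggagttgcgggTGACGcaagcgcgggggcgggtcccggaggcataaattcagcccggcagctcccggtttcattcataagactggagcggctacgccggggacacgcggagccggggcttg
Jun, chr4:95052173-95052472, minus strand: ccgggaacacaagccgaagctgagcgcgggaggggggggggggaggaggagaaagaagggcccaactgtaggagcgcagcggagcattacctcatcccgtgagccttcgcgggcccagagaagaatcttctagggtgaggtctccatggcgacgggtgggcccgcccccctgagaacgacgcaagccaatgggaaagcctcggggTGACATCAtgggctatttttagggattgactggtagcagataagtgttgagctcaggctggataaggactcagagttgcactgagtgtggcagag
Junb, chr8:84978699-84978998, minus strand: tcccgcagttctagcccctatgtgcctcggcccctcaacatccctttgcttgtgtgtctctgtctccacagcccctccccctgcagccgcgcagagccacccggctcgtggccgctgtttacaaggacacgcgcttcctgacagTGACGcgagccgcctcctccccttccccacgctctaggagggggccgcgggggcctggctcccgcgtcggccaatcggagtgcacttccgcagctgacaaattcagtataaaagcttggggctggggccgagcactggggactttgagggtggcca

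RefSeq windows were at hand for 9 of the 10 members. TGACG lay in the windows of 6 of these 9 genes, Fos, Fosb, Junb, Atf3, Maff and Mafk, and in those of 23.0% of all 27025 genes in the table. In Fos its matches began 129 and 66 bases before the start, in Fosb 60 bases and in Junb 106 bases before it. TGACATCA lay in the windows of Jun and of Maff, 45 bases before a start in each, and in those of 4.18% of all genes. The full TGACGTCA was found in a window of Maff alone among the 9 genes (2.03% of all genes). TGANTCA (8.97% of all genes) and the CArG box (1.81%) were found in none of the 9. The 9 genes include Jund, whose window is set by a RefSeq start 1210 bases from the start of the annotated Jund transcript. That window describes another stretch and is not printed. The RefSeq start of Fosl2 lies 299 bases from the nearest annotated transcript start, which its window does not hold. For these 2 genes, the lack of a match does not describe the annotated starts. A match is only a match of letters, and its absence concerns these windows alone.

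All 10 genes were well expressed in both groups. On the TPM scale (a relative abundance corrected for transcript length), Junb stood highest in controls with 445 ± 46.2 TPM (mean ± SD, n = 5), followed by Fosl1 with 432 ± 48.1 TPM. Their control ranges overlapped, and Junb was above Fosl1 in 3 of 5 control libraries. Jun (212 ± 5.07 TPM) and Fosl2 (202 ± 19.9 TPM) came next and also overlapped each other. Atf3 had 143 ± 13.7 TPM, apart from its neighbours on both sides. Mafk (83.5 ± 3.53 TPM), Jund (81.3 ± 12.0 TPM), Maff (68.7 ± 1.24 TPM) and Fos (63.2 ± 6.91 TPM) followed, each overlapping the next. Fosb was the lowest with 32.5 ± 1.62 TPM, below every control value of Fos. Fosl1 and Junb lay above 97.6% of the tested genes in control TPM, and Fosb above 64.6%.

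**Figure D1:**
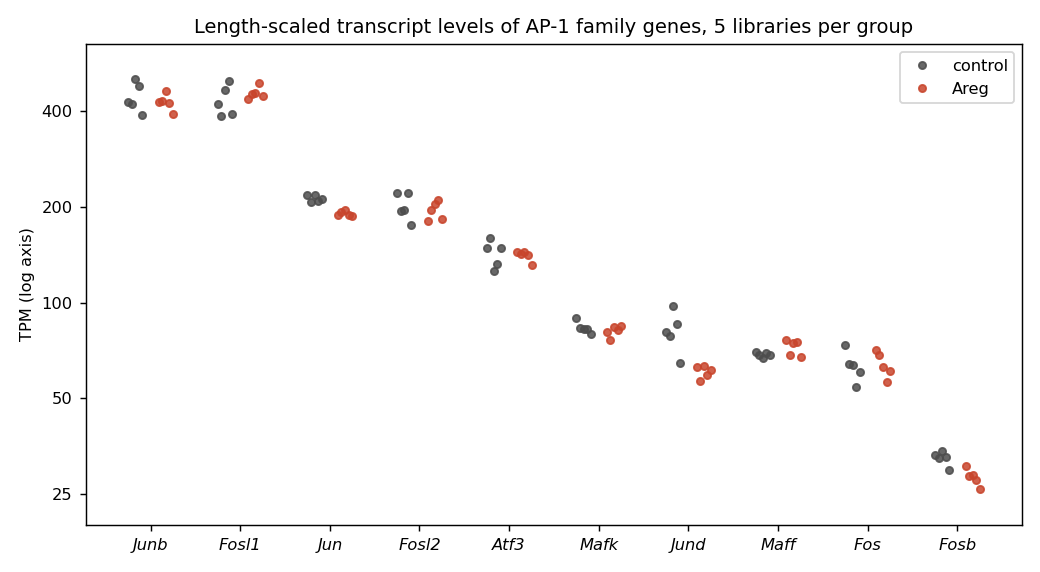
TPM of each AP-1 family gene on a log axis, with a point for each of 5 control and 5 Areg libraries, ordered by the control mean. Junb and Fosl1 sit between 386 and 503 TPM in every library, while Fosb sits between 25.9 and 34.2 TPM.

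Within the Fos group, Fosl1 took 59.2 ± 2.52% of the summed TPM in controls and 61.4 ± 0.955% with Areg (mean ± SD, n = 5 each). Fosl2 took 27.6 ± 1.56 and 26.2 ± 0.880%, and Fos, the classical early gene, 8.72 ± 1.23 and 8.62 ± 1.01%. Fosl1 and Fosl2 together held most of the Fos-type transcripts in both groups. Within the Jun group, Junb took 60.1 ± 1.56% in controls and 62.9 ± 1.08% with Areg, and Jun 28.9 ± 2.2 and 28.2 ± 0.758%. Jund took 10.97 ± 0.810% in controls and 8.95 ± 0.498% with Areg, with no overlap between the groups. Among the small Maf genes Maff, Mafk and Mafg, Maff took 15.1 ± 0.516% in controls and 17.2 ± 0.852% with Areg. Mafg, which is not a member, took 66.7 ± 0.895 and 63.5 ± 1.42%. Neither Maff nor Mafg overlapped between the groups, and Mafk did (18.3 ± 0.527 and 19.3 ± 0.959%). The summed Fos group was 0.989 ± 0.0472 times the summed Jun group in controls and 1.10 ± 0.0499 times with Areg, with overlap between the groups. These shares are descriptions and were not tested.

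After 4 h with Areg, log2 fold changes of the members ran from -0.39 to 0.12 in the main test. Which members were called depended on the setting. Jund fell by 0.39 on the log2 scale, and the other 9 genes did not pass the test with all libraries. Fosl1 was called higher without controls 3 and 4. With a trend in length and GC removed, 5 members were called higher and Jund was not called. Over all 13362 tested genes, that setting called 1087 higher and 710 lower. By edgeR's quasi-likelihood test with Benjamini-Hochberg adjustment over all tested genes, 1 of 10 members was called lower and 0 higher, against 8.32% and 8.34% of all tested genes. At an unadjusted p under 0.05 the counts were 2 lower and 0 higher. DESeq2 called 2 members lower and 0 higher, against 1287 lower and 1338 higher of 13362 tested genes. Of the members limma-voom called 1 lower and 0 higher, against 1071 and 1135 of those tested genes. The median log2 fold change of the members was -0.04, against -0.01 over all tested genes. The upper ends of the 95% intervals reached at most 1.24-fold, for Fosl1, under this normalization.

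**Figure D2:**
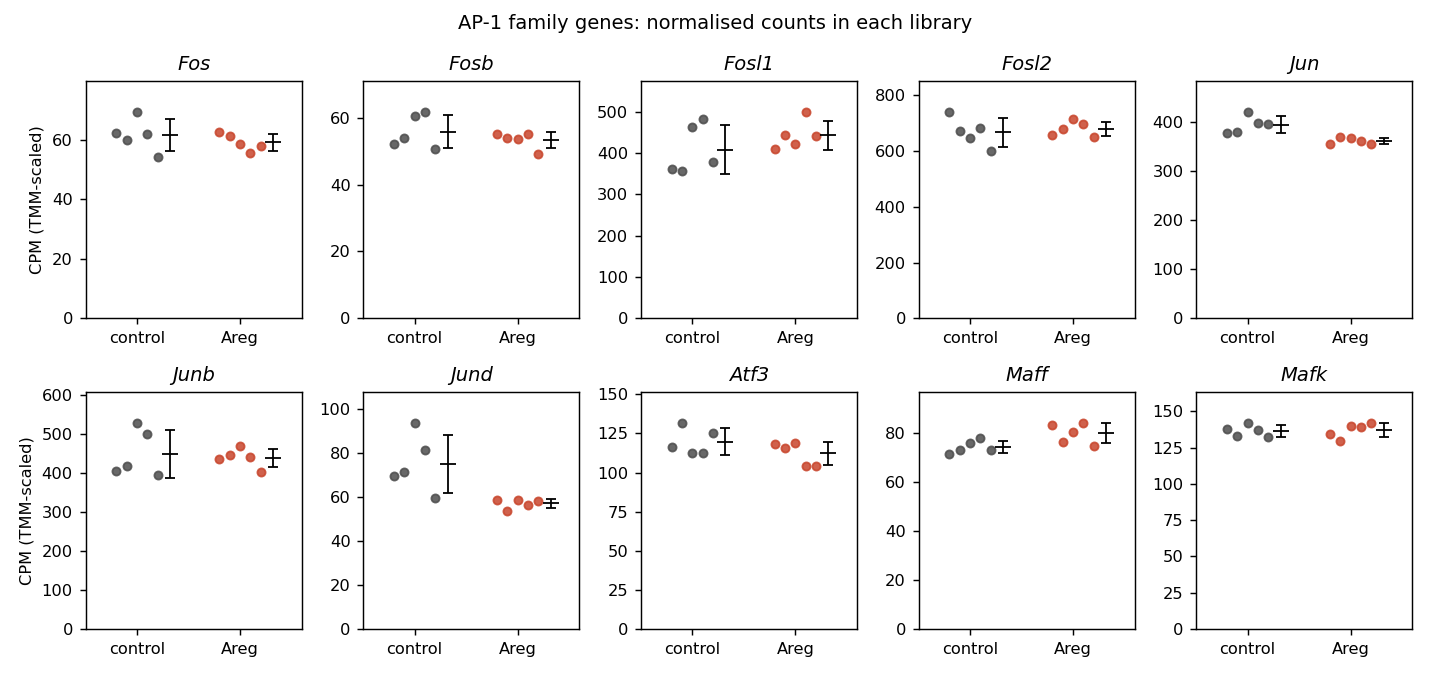
TMM-scaled CPM of each member in the 5 control and 5 Areg libraries, in panels with axes from 0, with bars for the mean ± SD. The groups overlap for 8 of 10 genes and are apart for Jun and Jund, where all Areg libraries are lower.

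The first principal component of all tested genes set controls 3 and 4 away from the remaining 8 libraries (46.6 and 28.6, against -16.5 to 0.455). Differences also followed the GC content of transcripts. The median log2 fold change with Areg went from 0.13 in 767 genes under 40% GC to -0.19 in 530 genes of 60 to 65% GC and -0.25 in 46 genes at or above 65%. Controls 3 and 4 differed from the other controls along the same axis, by a median of -0.27 under 40% GC and 0.29 at or above 65%. Part of the trend remained without them. The Areg libraries differed from controls 1, 2 and 5 by a median of 0.04 under 40% GC and -0.14 at or above 65%. All members had GC contents of 51.9 to 67.1%. Member values are therefore also given without these controls, and with a smooth trend over length and GC of the transcripts taken out of each library. Both settings were chosen after seeing the data. The part of this trend in each result was not tested further.

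Jund (chromosome 8, 70698949 to 70700616, GRCm38) encodes the Jun protein usually described as constitutive and growth-restraining, from a transcript with 1 exon. Controls 1 to 5 had 69.2, 71.1, 93.6, 81.1 and 59.3 CPM (CPM is depth-scaled after TMM normalization). Areg libraries 1 to 5 had 58.5, 53.6, 58.5, 56.1 and 57.9 CPM. Every Areg library was below every control, though control 5 came within 1 CPM of the highest Areg library, and controls 3 and 4 were the highest. The mean was 74.9 ± 13.0 CPM in controls and 56.9 ± 2.11 CPM with Areg. The fitted log2 fold change was -0.39, with an SE of 0.09 and an adjusted p of 0.0105 by edgeR. In such bulk libraries, fewer cells that express the gene and less RNA per cell cannot be told apart. Without controls 3 and 4 it was -0.22 (edgeR adjusted p = 0.00963). With the length and GC trend removed it was -0.15 and no longer called (edgeR adjusted p = 0.0776). With both changes it was -0.11 and not called (edgeR adjusted p = 0.200). Jund had the highest GC content of the members, 67.1%. Among 9822 other genes with at least 5 CPM, Cdk18 and Lzts2 had the patterns nearest to Jund over the 10 libraries, with mean absolute differences of 0.05 and 0.06 between centred log2 CPM values.

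Jun (chromosome 4, 95049034 to 95052222), the founding Jun gene and the strongest activator of its group, lay near the threshold. Controls had 378, 379, 419.7, 398 and 395 CPM, and Areg libraries 355, 368, 366, 361 and 355 CPM. The groups did not overlap, with the lowest control (378 CPM) next to the highest Areg library (368 CPM). The log2 fold change was -0.13 (SE 0.04, edgeR adjusted p = 0.0545), with a 95% interval from -0.22 to -0.04. DESeq2 called it lower (adjusted p = 0.0104). Without controls 3 and 4 Jun was at -0.09 and not called (edgeR adjusted p = 0.108). With the length and GC trend removed its log2 fold change was 0.01 (edgeR adjusted p = 0.919). That 2 of 10 members had groups without overlap, both lower, stands against 7.06% of all tested genes that were lower without overlap and 7.64% that were higher.

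Junb (chromosome 8, 84974484 to 84978718), an early-response Jun gene whose product is a weaker activator than Jun, had 403, 418, 528, 498 and 393 CPM in controls and 434, 446, 467, 441 and 402 CPM with Areg. The Areg values lay inside the control range, and controls 3 and 4 were again the highest. Its log2 fold change was -0.03 (SE 0.08, edgeR adjusted p = 0.820). Without controls 3 and 4 the sign turned, at 0.12, and Junb was not called (edgeR adjusted p = 0.0757). With the length and GC trend removed the sign also turned and the gene was called higher, at 0.18 (edgeR adjusted p = 0.00431).

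Fosl1 (chromosome 19, 5447547 to 5455946), which encodes Fra-1, a Fos protein that lacks the strong activation domain of Fos, had 361, 356, 463, 483 and 378 CPM in controls 1 to 5. Its CPM with Areg was 409, 443, 422, 499 and 441. Every Areg library was above controls 1, 2 and 5, and controls 3 and 4 were as high as the Areg libraries. With all libraries the log2 fold change was 0.12 (SE 0.09, edgeR adjusted p = 0.383). Without controls 3 and 4 Fosl1 was called higher, at 0.28 (edgeR adjusted p = 0.00127), which made 2 members called, Fosl1 higher and Jund lower. Of 13693 genes tested without these controls, 1147 were called higher and 1031 lower. Removing the length and GC trend with all libraries kept gave the same size, 0.28 (edgeR adjusted p = 0.00628).

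Fosl2 (chromosome 5, 32135801 to 32157842), which encodes the related Fra-2, ranged from 599.6 to 741 CPM in controls and from 651 to 715 CPM with Areg. Its log2 fold change was 0.03 (SE 0.05, edgeR adjusted p = 0.791), with an interval of 0.940-fold to 1.10-fold. Fos (chromosome 12, 85473890 to 85477273) had 62.4, 60.01, 69.3, 62.0 and 54.3 CPM in controls and 62.7, 61.3, 58.4, 55.4 and 58.0 CPM with Areg. The groups overlapped nearly throughout, and the log2 fold change was -0.06 (SE 0.06, edgeR adjusted p = 0.587). Its 95% interval ran from 0.878-fold to 1.05-fold. Without controls 3 and 4 Fos was at 0.01, and with the length and GC trend removed at -0.04 (edgeR adjusted p = 0.937 and 0.698). Fosb (chromosome 7, 19302696 to 19310051), an inducible relative of Fos, had 50.6 to 61.7 CPM in controls and 49.1 to 55.1 CPM with Areg. Its log2 fold change was also -0.06 (SE 0.06, edgeR adjusted p = 0.539). The sign of Fosb turned without controls 3 and 4 (0.03), with the length and GC trend removed (0.09) and with both changes (0.13). None of these was called (edgeR adjusted p = 0.755, 0.256 and 0.0933).

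Atf3 (chromosome 1, 191170296 to 191218039) ranged from 113 to 132 CPM in controls and from 104 to 119 CPM with Areg. Areg libraries 4 and 5 were below every control, while the others lay within the control range, and the log2 fold change was -0.09 (SE 0.06, edgeR adjusted p = 0.286). Maff (chromosome 15, 79346621 to 79359076) had 71.4, 73.0, 75.9, 77.6 and 72.8 CPM in controls and 83.0, 76.3, 80.3, 84.0 and 74.6 CPM with Areg. Areg libraries 1, 3 and 4 were above every control, and the log2 fold change was 0.10 (SE 0.05, edgeR adjusted p = 0.172). Mafk (chromosome 5, 139791513 to 139802653) was nearly level, with 132 to 142 CPM in controls and 129.7 to 142 CPM with Areg and a fitted difference of 0.01 on the log2 scale (SE 0.04, edgeR adjusted p = 0.938). With the length and GC trend removed, 5 members were called higher (Fosl1, Fosl2, Junb, Maff and Mafk, at 0.13 to 0.28) and 0 lower. Of 13362 tested genes, 1087 were then called higher and 710 lower. Without controls 3 and 4 as well, 3 were called higher (Fosl1, Junb and Maff) and Atf3 was called lower, at -0.16 (edgeR adjusted p = 0.0262). With both changes, 1057 of 13693 tested genes were called higher and 780 lower.

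**Figure D3:**
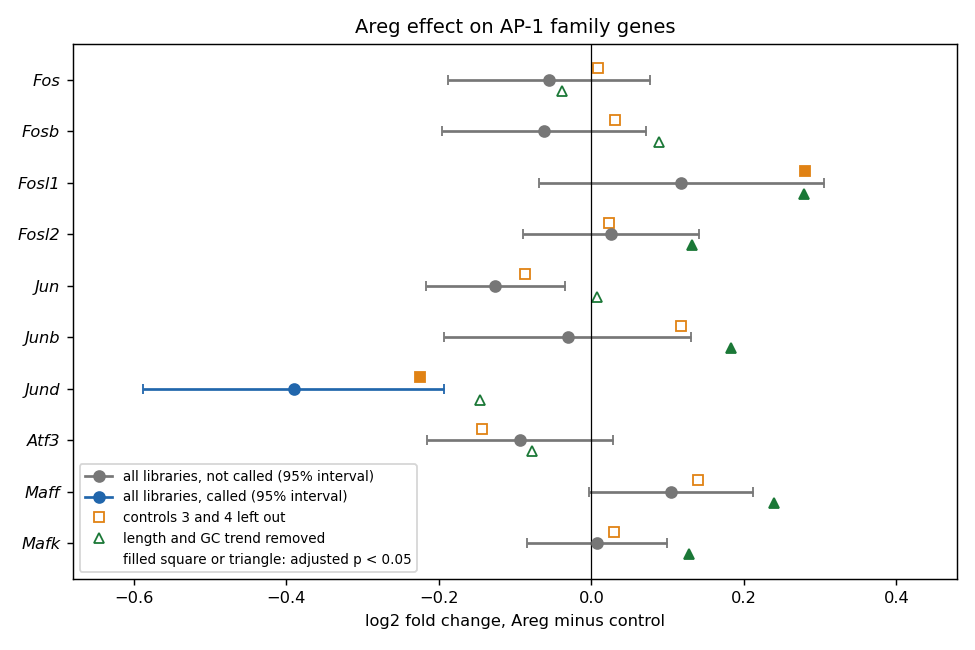
Log2 fold change of each member, Areg minus control, with 95% intervals for all libraries (circles), and values without controls 3 and 4 (squares) or with the length and GC trend removed (triangles). Removing the trend moved every member to the right, Jund from -0.39 to -0.15 and Junb from -0.03 to 0.18.

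The files hold 31 annotated transcripts of the 10 members, of which 22 passed the filter among 36269 transcripts tested. None of the 22 was called by edgeR's quasi-likelihood test (lowest adjusted p = 0.148), 4 had an unadjusted p under 0.05, and 0.775% of all tested transcripts were called, 0.301% lower and 0.474% higher. The lowest adjusted p belonged to Jund-201, the only annotated Jund transcript, at a log2 fold change of -0.39. The fall called for the gene was thus not called among transcripts. Jun, Junb and Jund each drew practically all of their signal from 1 transcript with 1 exon. The most abundant coding form held 88.7 ± 1.97% of Fosl1 TPM in controls, and that of Mafk 92.5 ± 1.16% of Mafk TPM. The short processed form Atf3-202 (517 bases) rested on few reads, with 9.08 ± 0.750 CPM in controls against 11.3 ± 1.56 CPM in the Areg group (adjusted p by edgeR 0.305). Its share of Atf3 TPM was 28.1 to 31.8% in controls and 32.4 to 44.2% with Areg, without overlap. The share of the coding form Fosb-206 (1090 bases) was 21.6 to 32.4% in controls and 15.9 to 26.1% with Areg, with control 4 inside the Areg range (edgeR adjusted p = 0.179 for its counts). Atf3-202 and Fosb-206 were picked after their values were seen. kallisto divides reads between such forms by estimation, so these shares carry an error that the spread between libraries need not show.

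**Figure D4:**
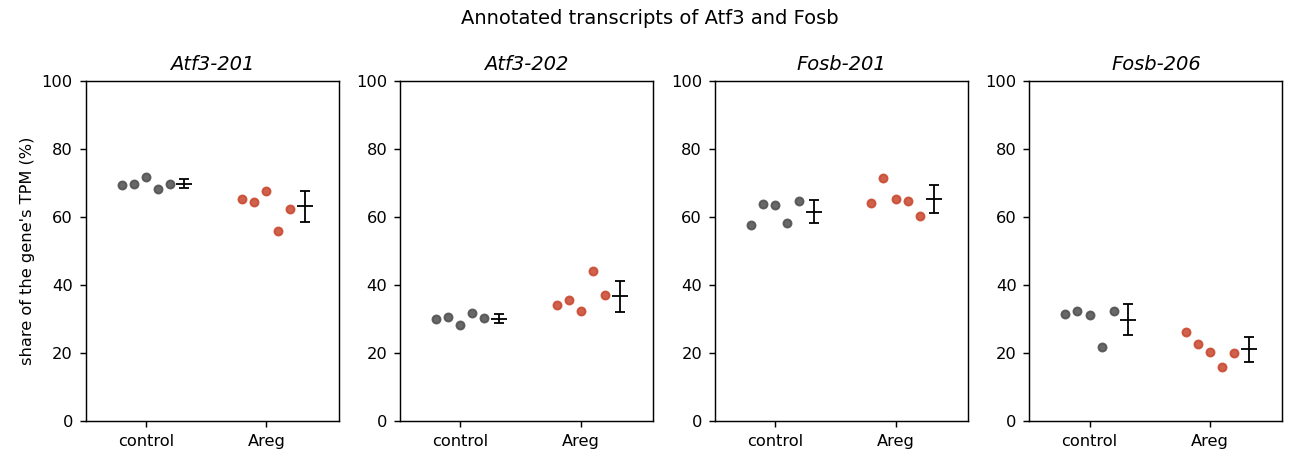
Share of the gene's TPM, in percent, held by the main and the shorter transcript of Atf3 and Fosb in each library, with bars for the mean ± SD. Atf3-202 lies between 32.4 and 44.2% in the Areg libraries, above all controls, and Fosb-206 between 15.9 and 26.1%.

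Other bZIP genes, which include further partners of Fos and Jun proteins, moved in both directions. Of 35 tested, 3 were called higher, 4 lower and 28 not against 16.7% of all tested genes called, with a median log2 fold change of -0.05. Bach2, a repressor that pairs with small Maf proteins, fell from 31.5 ± 2.75 to 23.7 ± 1.39 CPM, with all Areg libraries below all controls. Its log2 fold change was -0.42, at an adjusted p of 0.000911 by edgeR. Cebpb, an inflammatory bZIP activator, fell by 0.26 and Tef, a clock-linked factor, by 0.20 on the log2 scale. Jdp2, a repressor that pairs with Jun, fell by 0.22 (edgeR adjusted p = 0.0476), and Atf1 and Cebpg were higher by 0.16 and 0.18. Atf1 and Cebpg also lay near the threshold (edgeR adjusted p = 0.0494 and 0.0462). Controls 3 and 4 were the highest controls for Jdp2 and the lowest for Atf1 and Cebpg. Jdp2, Atf1 and Cebpg were picked after their values were seen. With the length and GC trend removed, Cebpb was at -0.03 and Tef at -0.19, and neither was called. Without controls 3 and 4 both were called lower, Cebpb at -0.14 and Tef at -0.27. With both changes Cebpb was at -0.03 and not called, and Tef was called lower at -0.35.

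Genes that act upstream of Fos and Jun transcription, namely MAP kinases, their activating kinases and the serum response and Mef2 factors, had 2 of 30 tested members called higher, 5 lower and 23 not, against 8.34% higher and 8.32% lower over all tested genes. With the length and GC trend removed the counts were 5 higher and 2 lower, against 1087 and 710 of 13362 tested genes. Mapk3, which encodes ERK1, fell by 0.26, with controls 3 and 4 again the highest libraries (185 and 173 CPM). Its call was lost under 7 of 23 alternatives. Without controls 3 and 4 Mapk3 was at -0.13 (edgeR adjusted p = 0.0484). With the trend removed it was also at -0.13 but not called (edgeR adjusted p = 0.0573). With both changes it was at -0.09 (edgeR adjusted p = 0.203). Map2k4, which encodes a kinase that activates JNK, rose by 0.25. Among 18 tested genes whose products bind, modify or degrade Jun or Fos proteins, edgeR called 2 lower and 0 higher, and no member was higher at an unadjusted p under 0.05 or by DESeq2 or limma-voom. This is 11.1% called, against 16.7% of all tested genes. Without controls 3 and 4 it was 0, against 2178 of 13693 tested genes. The genes called were Men1, the menin gene whose product binds JunD, at -0.28 and Crebbp, a coactivator gene, at -0.17, and neither call held without controls 3 and 4.

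Many genes reported as AP-1 targets rose. Of 32 tested, 15 were called higher (46.9%), 0 lower and 17 not, against 8.34% higher and 8.32% lower over all tested genes. The median log2 fold change was 0.20. At an unadjusted p under 0.05 the counts were 20 higher and 2 lower. DESeq2 called 17 higher and 0 lower, against 1338 and 1287 of 13362 tested genes. Without controls 3 and 4 the counts were 21 and 0, against 1147 and 1031 of 13693 tested genes. The list was drawn up with earlier results of these data known, so its direction is not independent evidence. The lowest p-values belonged to Spp1, F3 and Il6, for osteopontin, tissue factor and interleukin-6, with log2 fold changes of 1.05, 0.77 and 0.98. Krt18, a keratin gene, rose from 51.8 ± 4.97 to 80.95 ± 11.8 CPM. Odc1, which encodes the first enzyme of polyamine synthesis, rose by 0.22. Krt18 and Odc1 were picked after their values were seen. Whether the target genes and the AP-1 genes differed as lists was not tested.

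**Figure D5:**
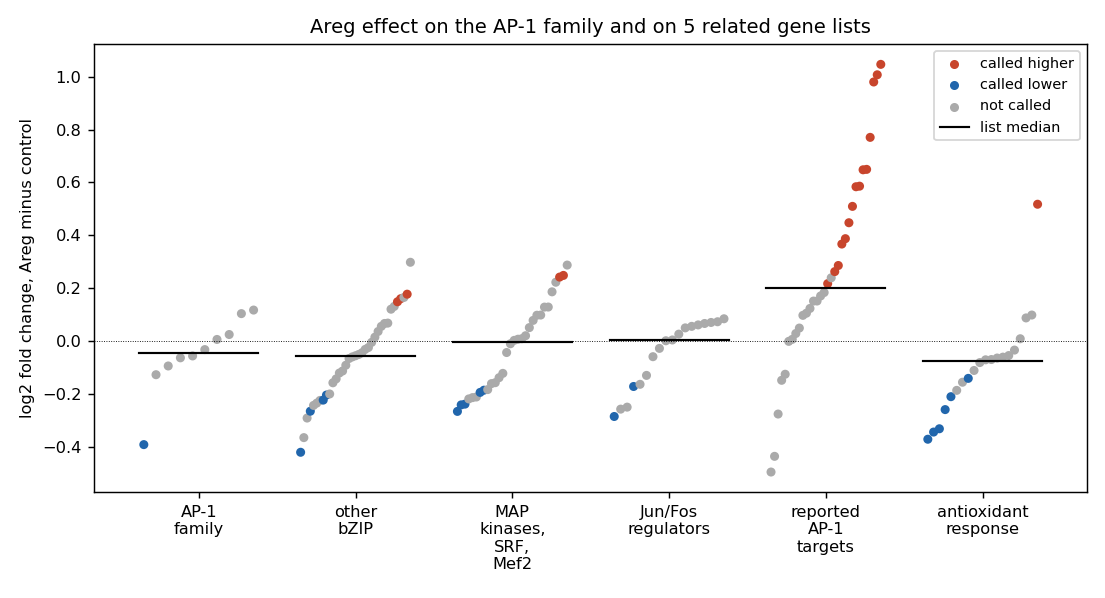
Log2 fold change, Areg minus control, of each tested gene in the AP-1 family and in 5 related lists, coloured by the edgeR call, with the list median as a bar. The medians are -0.04 for the family and 0.20 for the reported targets, and no family gene exceeds 0.12.

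Genes of the antioxidant response, where small Maf proteins pair with Nfe2l2, had 6 of 20 tested members called lower, 1 higher and 13 not, with a median of -0.08, against 8.32% lower and 8.34% higher over all tested genes. Hmox1, the heme oxygenase gene, fell from 5623 ± 683 to 4351 ± 131 CPM, or by 0.37 on the log2 scale (adjusted p by edgeR 0.00209). Nqo1, a quinone reductase gene, fell by 0.26, with all Areg libraries below all controls. Slc7a11, the cystine transporter gene, was the member that rose, by 0.52. These 3 calls held under all 23 alternatives, and Hmox1 was at -0.26 without controls 3 and 4. Controls 3 and 4 were the highest libraries for Hmox1, Gstm1 (549 and 528 CPM) and Osgin1 (494 and 427 CPM). They were the lowest for Slc7a11, and for Nqo1 they were neither. Gstm1 and Osgin1 were picked after their values were seen. The count for this list is given for the main test only.

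All 12 stellate cell markers were detected at 1 TPM or more, Dcn highest. Their summed level was 10356 to 11168 TPM in controls and 9646 to 9987 TPM with Areg, without overlap. Ecm1 had means of 4412 TPM in controls and 3568 TPM with Areg, and Dcn 5390 and 5274 TPM. Hgf alone had a higher mean with Areg, and none of this was tested on this scale. Markers of other liver cells were present as well, with all 8 of the endothelial list (2507 to 2870 TPM in controls, 2492 to 2590 with Areg), all 8 of the macrophage list (594 to 650 and 569 to 619 TPM) and all 8 of the hepatocyte list (1099.7 to 1643 and 1119 to 1352 TPM) at a mean of 1 TPM or more. The summed cholangiocyte list was higher with Areg (102 to 119 TPM) than in controls (48.3 to 58.8 TPM). Most of it was Spp1, also on the list of reported targets, with means of 52.0 TPM in controls and 106 TPM with Areg. The other 4 cholangiocyte markers had means of 1.52 TPM or less, with Krt19, Krt7 and Epcam lower with Areg and Sox9 higher, untested on this scale. The lists for smooth muscle cells and portal fibroblasts (34.7 to 40.1 and 33.5 to 37.9 TPM) and lymphocytes (0.937 to 3.35 and 1.10 to 1.91 TPM) overlapped between groups. The part of these other cells in the AP-1 values was not tested. Prdx2, which overlaps Junb on the opposite strand, had 35.3 to 51.5 TPM, and Ccdc85b and Tmem184a, which overlap Fosl1 and Mafk, at most 1.55 TPM. The antisense genes annotated over Jun and Jund were not analysed here.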

How the data were processed

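Poly-A-selected RNA libraries were quantified by the authors with kallisto 0.44.0, going by the submitters' processing notes, which also list bcl2fastq 2.19, DESeq2 and GRCm38.p6 without roles. Per the file headers, the deposited values are estimated counts (expected counts, not always whole), TPM and lengths for each transcript. The sources used here do not give the transcript set or the strand setting.

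Transcripts were joined to genes through GENCODE M21 of GRCm38, where 116816 of 118489 matched. The rest held 0.736 to 0.778% of counts. Counts were summed per gene and rounded. Totals were 10125184 to 17566891 in controls and 14365027 to 20057962 with Areg. The ranges overlapped, with medians of 14481953 and 18505132, so counting error was typically larger in controls. No replicate pair matched within counting error (chi-square over its degrees of freedom, 3.77 to 50.7).

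The test was edgeR 4.0.16 quasi-likelihood (R 4.3.3, robust) with TMM factors, filterByExpr (minimum count 10, minimum total 15) and a threshold of 0.05 after Benjamini-Hochberg adjustment over all genes. It was tested on simulated data. Transcripts were tested likewise. Alternatives used DESeq2 1.42.0 and limma 3.58.1. The trend alternative used splines with 5 degrees of freedom in length and GC content, which 13354 of 13362 genes had.

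The members and lists were chosen with earlier results of these data known. Named genes were the 10 members, up to 3 genes per list by smallest p, and the 2 nearest patterns of each called member. Mkl1, Mkl2 and Rfwd2 matched no symbol of the annotation. Some genes that this rule names are not reported here.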

Additional observations from a re-analysis of the deposited data

Results flagged for a closer look

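Fosb had 49.1 CPM in Areg library 5, against 53.6 to 55.1 CPM in the other Areg libraries, a gap wider than Dixon's 95% limit for 5 values. This was the case in 1 of 20 groups of member values examined, and chance gives about 1 in 20. Without that library the log2 fold change of Fosb was -0.03 (edgeR adjusted p = 0.786).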

How the results depend on the processing

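Of 621 values of 27 named genes under 23 alternatives, 542 kept their side of the threshold without a called reversal, 59 lost a call, 18 gained one and 2 reversed. The reversals were both of Junb, at 0.18 with the length and GC trend removed and 0.21 with controls 3 and 4 left out as well (edgeR adjusted p = 0.00431 and 0.00105). At the gene level, the fall of Jund was lost under these 2 alternatives only, at -0.15 and -0.11 (edgeR adjusted p = 0.0776 and 0.200). Jun was called lower under 4 alternatives, and the count of members called was 2, both lower, with upper-quartile factors, with a minimum of 1 CPM in 5 libraries and with DESeq2. It was 2 (1 higher, 1 lower) without controls 3 and 4, 5 (5 higher, 0 lower) with the trend removed, and 4 (3 higher, 1 lower) with both. Over all tested genes these settings called 1147 higher and 1031 lower, 1087 and 710, and 1057 and 780, in that order. Leaving out each library in turn gave 1 to 2 members called, 1 to 2 lower and 0 to 0 higher. Among all genes, leaving out each library gave 1364 to 2314 called, 686 to 1181 higher and 678 to 1150 lower, against 2226, 1114 and 1112 with all libraries, the lowest without Areg replicate 2. The count was 1149 (617 higher, 532 lower) with a transcript length offset, 856 (322 and 534) on log2(TPM + 1) and 868 (325 and 543) on log2(TPM + 0.1) by limma-trend. With the trend removed 1087 were higher and 710 lower. Of those calls 60.5% were higher, against 50.04% in the main test and 37.6% on log2(TPM + 1). The cause of these shifts was not tested. Transcripts of members called stayed at 0 to 0 without any one library. With the replicate number as a block, 2357 genes and 1 member were called. Same-numbered libraries deviated together by correlations of -0.05 to 0.14, so the numbers were not taken to pair them, and 2 of 5 controls correlated best with their own number. Shares within families on a CPM per kilobase scale moved by less than 1 SD.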
